A study of Mus musculus with 12 samples.

Results

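The genes described here are 57 genes of G2 phase and mitosis in mouse bone marrow plasma cells. They were taken by symbol from a table of 14219 genes, and all 57 were in it. They were named by their function, in a list drawn up with earlier results of these data known. They cover the condensin subunits and topoisomerase II, the mitotic cyclins with Cdk1, the spindle checkpoint and anaphase machinery, spindle proteins, the chromosomal passenger complex, mitotic kinases, cytokinesis proteins, kinesin motors and centromere proteins.

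The study sequenced RNA of plasma cells, the antibody-secreting end cells of the B lineage, from bone marrow of BLTcre.mcl1fl/+ mice on C57BL/6. Tamoxifen turned on a human CD4 reporter in these mice, and cells with the reporter (human CD4+, called marked) were sorted apart from cells without it (human CD4-, called unmarked). The 4 groups of 3 libraries each are marked and unmarked cells 60 days after tamoxifen and marked and unmarked cells 270 days after it. All 4 groups carry the Cre transgene and 1 floxed and 1 intact allele of Mcl1, an anti-apoptotic Bcl2 family gene, and all received tamoxifen, so there is no group without them. The sources used here do not give the driver behind the name BLTcre, the recombination of the floxed allele or the age of the mice. Nothing in the labels says that libraries of a group came from separate animals, so the p-values measure the spread between libraries.

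A cell that divides passes from DNA synthesis through G2 into mitosis. Cyclin A2 and the B cyclins activate Cdk1, condensin and topoisomerase II compact the chromosomes, kinesins and spindle proteins build the spindle, and the anaphase-promoting complex with Cdc20 then releases the chromatids. Most of these genes are transcribed in G2 and M, and their transcripts fall again after division. Plasma cells that have matured are known as non-dividing, whereas the plasmablasts from which they arise divide.

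Values are in CPM, read counts scaled to the same total over the table's genes in each library. The libraries held 7449468 to 15943547 reads, so that 1 CPM was 7.45 to 15.9 reads and many values rest on few reads. Reads fell on 11022 and 11301 genes in marked libraries 2 and 3 of day 270, the lowest numbers, against 12580 to 13506 in the other 10 libraries. The plasma cell marker Sdc1 (syndecan-1) had 2010.0 ± 241 CPM in marked and 2008 ± 116 CPM in unmarked libraries at day 60, and 2084 ± 299 CPM in marked and 2151 ± 185 CPM in unmarked libraries at day 270 (SD, n = 3 each). Summed over the 8 plasma cell markers, CPM ran from 214100 to 325800 in marked and from 229700 to 258900 in unmarked libraries at day 60. At day 270 that sum was 219800, 89990 and 168500 CPM in marked and 204700, 177900 and 230900 CPM in unmarked libraries, so that marked libraries 2 and 3 lay below all unmarked ones. Tests were made with limma on log2(CPM + 0.5) over 12704 genes that passed a filter on low reads, with Benjamini-Hochberg adjustment over all of them. A gene is called at an adjusted p under 0.05. All 57 genes passed that filter, many of them through reads in unmarked libraries alone. Fold changes are log2 differences with their standard error, and the added 0.5 makes them understate the change of genes with low values.

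As a sum, transcripts of the 57 genes were scarcer in marked than in unmarked cells at both days. Summed over the 57 genes, CPM came to 111, 174 and 179.6 in marked and 485, 509.6 and 522 in unmarked libraries at day 60. At day 270 the sum was 217, 134 and 229.9 CPM in marked and 520.2, 497 and 389.9 CPM in unmarked libraries. Each marked library lay below each unmarked library of either day. In bulk RNA, fewer dividing cells and less of these transcripts per cell cannot be told apart.

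The number of the 57 genes with at least 1 read was 41, 44 and 32 in marked and 55, 56 and 54 in unmarked libraries at day 60. At day 270 it was 42, 21 and 29 in marked libraries, against 57, 56 and 52 in unmarked libraries. The 21 and 29 belong to the libraries with the fewest genes with a read. With the 6 genes of highest mean CPM left out (Mki67, Bub1b, Pttg1, Smc4, Racgap1 and Top2a), the sum was 52.3 to 84.0 CPM in marked and 309 to 352 CPM in unmarked libraries at day 60. At day 270 that sum was 69.8 to 114 CPM in marked and 244 to 356 CPM in unmarked libraries.

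**Figure D1:**
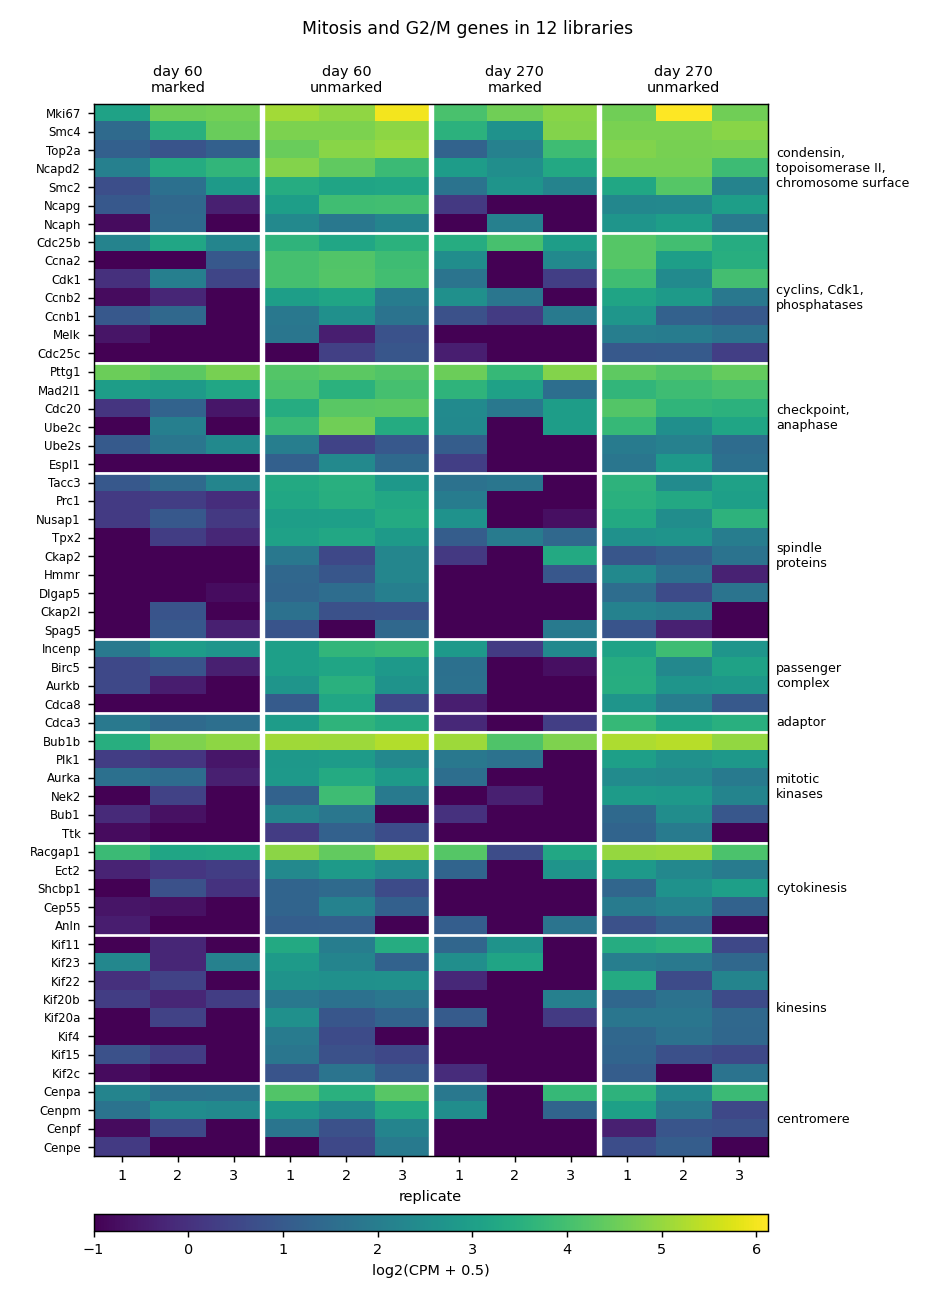
Heat map of log2(CPM + 0.5) for the 57 genes (rows, grouped by role) in the 12 libraries (columns, by group and replicate). Most rows are darker in marked than in unmarked libraries of the same day, and the darkest cells are genes without a read, of which marked libraries had 13 to 36 and unmarked libraries 0 to 5.

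Averaged over both days, 27 of the 57 genes were called, all 27 lower in marked cells, where 1.84% of all genes tested were called and 1.5% were called lower. A negative log2 fold change was found for 56 of the 57 (70.4% of all genes), and for 50 it had an unadjusted p under 0.05 in that direction (14.2% of all genes). The median over the 57 genes was -1.95, beside -0.18 over all genes tested. The quasi-likelihood test of edgeR on the recovered reads called 17 of the 57, all lower, and 204 genes in all, beside 234 with limma. Relative to TMM scaling, scaling by total reads moved the median of all genes by -0.13 in this comparison, so that about that much of each fold change depends on the scaling.

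The labels give the same specimen number to 1 marked and 1 unmarked library of a day, which makes 6 pairs. In all 6 pairs, 37 of the 57 genes were lower in the marked library (7.64% of all genes), 12 were lower in 5 pairs and 8 in 4 pairs or fewer. Every marked library lay below every unmarked library of its day for 44 genes at day 60 (11.3% of all genes) and for 30 genes at day 270 (12%). Over all 12 libraries the groups did not overlap for 21 genes (1.85%). By the leading numbers in the labels, the replicate 1 libraries of all 4 groups stand together. Among the other 8 libraries marked and unmarked ones have separate ranges of numbers. The labels do not say what these numbers stand for. An effect of whatever they stand for and one of marking cannot be told apart in those 8 libraries. In the replicate 1 pair alone, 54 of the 57 genes were lower in the marked library at day 60 (67.2% of all genes), and 54 were so at day 270 (57.9%).

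**Figure D2:**
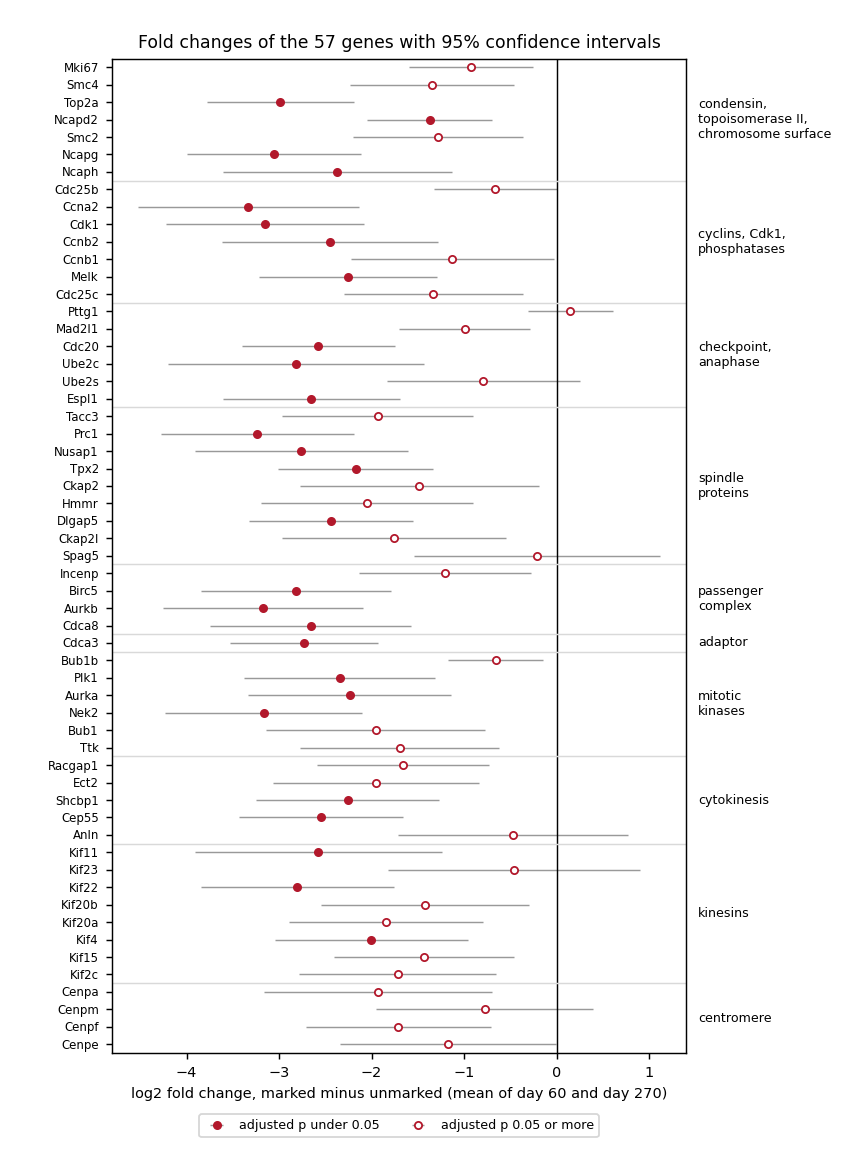
Log2 fold change of each of the 57 genes, marked minus unmarked as the mean of both days, with its 95% confidence interval from limma; filled points are called genes. All points but that of Pttg1 (0.15) lie left of 0, and the 27 filled points lie between -1.37 and -3.33.

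The promoters of 6 called genes with large falls are shown because many genes of G2 and mitosis are known to share CCAAT boxes, bound by NF-Y, and a cell cycle genes homology region (CHR), bound by the MuvB complexes. They are the 6 called genes with the largest falls among those with an entry in the RefSeq promoter table (build GRCm38.p6), and each run is the 250 bases before the RefSeq start (for Prc1 the first listed of 2 starts), 5′ to 3′ on the gene's strand. Capitals mark the CCAAT box and, as forms of the CHR, TTTGAA as well as the rarer TTTAAA and the form TTCGAA, each on either strand. Their positions are chr7:80294201-80294450 (plus) for Prc1, chr1:191821223-191821472 (plus) for Nek2, chr10:69352913-69353162 (minus) for Cdk1, chr5:45669675-45669924 (plus) for Ncapg, chr11:99024190-99024439 (minus) for Top2a and chr11:117848987-117849236 (plus) for Birc5.
Prc1: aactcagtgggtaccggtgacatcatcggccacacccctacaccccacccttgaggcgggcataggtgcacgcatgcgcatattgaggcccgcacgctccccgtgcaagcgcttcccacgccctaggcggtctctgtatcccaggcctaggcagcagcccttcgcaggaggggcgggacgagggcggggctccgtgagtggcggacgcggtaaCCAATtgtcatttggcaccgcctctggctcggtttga
Nek2: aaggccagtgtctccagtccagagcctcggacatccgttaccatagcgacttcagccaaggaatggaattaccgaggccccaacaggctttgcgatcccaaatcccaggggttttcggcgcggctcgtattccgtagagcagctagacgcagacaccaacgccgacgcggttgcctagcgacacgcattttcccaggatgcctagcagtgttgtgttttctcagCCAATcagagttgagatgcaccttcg
Cdk1: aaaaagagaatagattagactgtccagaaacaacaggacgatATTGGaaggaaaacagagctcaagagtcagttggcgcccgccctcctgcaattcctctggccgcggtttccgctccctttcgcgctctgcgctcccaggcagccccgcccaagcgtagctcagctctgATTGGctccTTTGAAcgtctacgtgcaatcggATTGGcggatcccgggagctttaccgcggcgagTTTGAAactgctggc
Ncapg: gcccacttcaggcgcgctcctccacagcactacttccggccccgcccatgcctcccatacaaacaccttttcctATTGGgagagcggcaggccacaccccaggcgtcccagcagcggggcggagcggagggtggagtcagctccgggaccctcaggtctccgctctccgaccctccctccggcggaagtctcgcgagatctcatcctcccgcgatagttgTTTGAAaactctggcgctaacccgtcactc
Top2a: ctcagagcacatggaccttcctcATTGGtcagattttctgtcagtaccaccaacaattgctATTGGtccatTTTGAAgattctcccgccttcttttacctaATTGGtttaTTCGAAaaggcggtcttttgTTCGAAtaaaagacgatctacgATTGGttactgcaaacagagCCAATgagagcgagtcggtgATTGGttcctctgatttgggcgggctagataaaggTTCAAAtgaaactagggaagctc
Birc5: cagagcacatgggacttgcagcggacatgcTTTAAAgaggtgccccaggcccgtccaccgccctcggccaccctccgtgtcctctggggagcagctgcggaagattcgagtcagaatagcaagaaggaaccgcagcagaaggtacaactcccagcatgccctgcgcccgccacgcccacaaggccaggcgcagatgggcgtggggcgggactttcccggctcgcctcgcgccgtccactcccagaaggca

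In these windows Top2a held CCAAT at 6 places, the form TTTGAA at 2 and TTCGAA at 2, and Cdk1 held CCAAT at 3 places and TTTGAA at 2. The TTTGAA nearest the start began 15 bases before it in Cdk1, 23 in Top2a and 30 in Ncapg. Nek2 and Prc1 held 1 CCAAT each, at 26 and 37 bases before the start, and Birc5 held TTTAAA at 220 and no CCAAT. No motif shares a letter with another in these windows, although the forms TTTAAA and also TTCGAA read the same on both strands.

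The table held promoters for 48 of the 57 genes (51 windows). CCAAT was in 72.5% of these windows, against 35.4% of 11358 windows of 8914 genes tested. TTTGAA was in 39.2%, against 10.8%, and any of the 3 CHR forms in 54.9%, against 19.1%. CCAAT with a CHR form stood in 45.1% of the windows of the 57 genes and in 7.06% of all windows. The share with both was 50.0% among 24 windows of the genes called over both days. With the bases after the start included, CCAAT with a CHR form was in 70.6% of the members' windows, against 8.32% of all windows, and in the last 150 bases before the start in 37.3%, against 2.92%. These are matches of letters, not measured binding. The window of Pttg1, the gene with the positive fold change over both days, held none of the 4 motifs, but neither did those of Melk, Ncaph and Nusap1, which were called lower.

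Of the 7 genes for chromosome compaction and the chromosome surface, 4 were called lower over both days. Gene positions are those of GENCODE M21 on GRCm38. Top2a (chromosome 11, 98992943 to 99024189, minus strand), the topoisomerase that untangles sister chromatids, had 1.78, 1.31 and 1.79 CPM in marked and 21.8, 28.3 and 32.0 CPM in unmarked libraries at day 60, and 1.88, 3.89 and 14.6 CPM in marked and 26.5, 24.7 and 25.5 CPM in unmarked libraries at day 270. Marked libraries lay below unmarked ones at both days, with library 3 of day 270 the highest of the marked. The log2 fold change was -3.70 ± 0.54 (adjusted p 0.00503) at day 60 and -2.27 ± 0.54 (adjusted p 0.0654) at day 270, and -2.99 ± 0.38 over both days (adjusted p 0.000455). Ncapg (chromosome 5, 45669919 to 45700546, plus strand), a HEAT-repeat subunit of condensin I, had 1.46, 2.14 and 0.268 CPM in marked and 7.37, 14.8 and 15.1 CPM in unmarked libraries at day 60, and 0.627, 0 and 0 CPM in marked and 4.42, 4.52 and 7.37 CPM in unmarked libraries at day 270. No marked library reached the lowest unmarked one, and Ncapg was called at day 270 (-3.14 ± 0.64, adjusted p 0.0333) and over both days (-3.05 ± 0.45, adjusted p 0.00125), but not at day 60 (-2.96 ± 0.64, adjusted p 0.0826). Ncapd2, the other HEAT subunit of condensin I, had 3.80, 9.87 and 12.2 CPM in marked and 27.3, 20.2 and 13.9 CPM in unmarked libraries at day 60, and 7.21, 5.24 and 9.30 CPM in marked and 24.5, 24.1 and 14.1 CPM in unmarked libraries at day 270. Its groups did not overlap, and its change was -1.37 ± 0.32 over both days (adjusted p 0.0310). Ncaph, the kleisin that holds condensin I together, had 0.0810, 2.26 and 0 CPM in marked and 4.56, 3.09 and 4.13 CPM in unmarked libraries at day 60, and 0, 3.76 and 0 CPM in marked and 6.08, 7.41 and 3.20 CPM in unmarked libraries at day 270. In marked cells nearly all its reads came from library 2 of each day, and library 2 of day 270 lay above unmarked library 3, with -2.37 ± 0.59 over both days (adjusted p 0.0462).

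The other members of this role were not called. Mki67, the proliferation marker Ki-67 that coats mitotic chromosomes, had 8.09, 23.2 and 24.4 CPM in marked and 34.4, 30.4 and 63.5 CPM in unmarked libraries at day 60, and 16.2, 23.4 and 28.5 CPM in marked and 23.5, 68.9 and 23.4 CPM in unmarked libraries at day 270. Its groups overlapped at day 270, where unmarked library 2 stood far above the other 5 libraries, and the fold change over both days was -0.93 ± 0.32 (adjusted p 0.164). Smc2 and Smc4, the ATPase core of both condensins, had fold changes of -1.28 ± 0.44 (adjusted p 0.158) and -1.35 ± 0.42 (adjusted p 0.125).

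Among 7 genes for cyclins, Cdk1, its phosphatases and the kinase Melk, 4 were called lower. Ccna2 (chromosome 3, 36564865 to 36572150, minus strand), cyclin A2, had 0, 0 and 1.43 CPM in marked and 15.7, 17.8 and 14.4 CPM in unmarked libraries at day 60, and 5.08, 0 and 4.65 CPM in marked and 18.2, 7.41 and 10.6 CPM in unmarked libraries at day 270. At day 60, 2 marked libraries had no read and the third lay far below the lowest unmarked library. The fold change of -4.39 ± 0.81 (adjusted p 0.0246) at day 60 was the most negative of all genes tested on the scale with 0.5 CPM added. By pooled reads other members fell further. Ccna2 was 31.6-fold lower in marked cells of day 60, and Ccnb2 50.0-fold lower on 4 marked reads. At day 270 the fold change of Ccna2 was -2.28 ± 0.81 (adjusted p 0.229), and the groups still did not overlap. Over both days Ccna2 was called (-3.33 ± 0.57, adjusted p 0.00416). Cdk1 (chromosome 10, 69335146 to 69352938, minus strand), the mitotic cyclin-dependent kinase, had 0.485, 3.69 and 0.894 CPM in marked and 15.7, 18 and 15.1 CPM in unmarked libraries at day 60, and 2.82, 0 and 0.757 CPM in marked and 14.8, 4.81 and 15.3 CPM in unmarked libraries at day 270. The groups were apart at both days and the fold changes were -3.22 ± 0.72 at day 60 and -3.09 ± 0.72 at day 270, each short of the threshold alone (adjusted p 0.104 and 0.0629) and called together (-3.15 ± 0.51, adjusted p 0.00272).

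Ccnb2, cyclin B2, had 0.0810, 0.357 and 0 CPM in marked and 7.37, 8.67 and 3.44 CPM in unmarked libraries at day 60, and 5.46, 2.95 and 0 CPM in marked and 8.47, 6.83 and 3.13 CPM in unmarked libraries at day 270. Marked cells held 4 reads in all at day 60 and 109 at day 270, where marked library 1 lay above unmarked library 3, and over both days the change was -2.45 ± 0.56 (adjusted p 0.0280). Melk had 0.162, 0 and 0 CPM in marked and 2.98, 0.258 and 1.24 CPM in unmarked libraries at day 60, and 0, 0 and 0 CPM in marked and 3.59, 3.46 and 2.76 CPM in unmarked libraries at day 270. No marked library of day 270 had a read, which puts marked cells at least 35.1-fold lower by a floor of 3 reads over the group, and over both days Melk was called (-2.25 ± 0.46, adjusted p 0.0141). Cdc25b, a phosphatase that activates Cdk1, had 4.04, 8.68 and 4.20 CPM in marked and 11.8, 8.76 and 11.1 CPM in unmarked libraries at day 60, and 10, 16.1 and 7.25 CPM in marked and 18.5, 15.1 and 10.1 CPM in unmarked libraries at day 270. Its groups overlapped at day 270, and its change of -0.66 ± 0.32 was not called (adjusted p 0.297). Ccnb1, cyclin B1, and the phosphatase Cdc25c were not called either, with -1.12 ± 0.52 and -1.33 ± 0.46. Ccnb1 shares at least 94.4% of its letters with 5 pseudogenes over the stretches that align, so reads of its transcript could be split among them and its value is uncertain.

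Of 6 genes for the spindle checkpoint, anaphase and cohesin release, 3 were called lower. Cdc20 (chromosome 4, 118432901 to 118437352, minus strand), which activates the anaphase-promoting complex, had 0.566, 1.90 and 0.179 CPM in marked and 10.1, 19.1 and 19.5 CPM in unmarked libraries at day 60, and 4.77, 3.09 and 7.36 CPM in marked and 18, 12 and 11.4 CPM in unmarked libraries at day 270. Every marked library lay below every unmarked one, with a change of -3.74 ± 0.56 at day 60 (adjusted p 0.00503) and of -1.41 ± 0.56 at day 270 (adjusted p 0.275), and it was called over both (-2.57 ± 0.39, adjusted p 0.00184). Ube2c, the ubiquitin-conjugating enzyme of that complex, had 0, 3.69 and 0 CPM in marked and 13.8, 23.4 and 9.84 CPM in unmarked libraries at day 60, and 4.70, 0 and 7.25 CPM in marked and 13.2, 5.39 and 8.64 CPM in unmarked libraries at day 270. At day 270 marked library 3 lay above unmarked library 2, and Ube2c was called over both days (-2.82 ± 0.66, adjusted p 0.0310). Espl1, separase, the protease that cuts cohesin, had 0, 0 and 0 CPM in marked and 1.75, 4.64 and 2.20 CPM in unmarked libraries at day 60, and 0.753, 0 and 0 CPM in marked and 2.95, 6.64 and 2.61 CPM in unmarked libraries at day 270. At day 60 no marked library had a read, at least 30.1-fold lower, and the change over both days was -2.65 ± 0.46 (adjusted p 0.00416).

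Pttg1, securin, the inhibitor of separase, was the only one of the 57 genes with a positive fold change over both days in limma (with edgeR and DESeq2, Kif23 and Spag5, not called, were positive too). It had 22.6, 19.5 and 24.7 CPM in marked and 18.2, 19.4 and 17.7 CPM in unmarked libraries at day 60, and 22.3, 13.0 and 27.1 CPM in marked and 20.1, 17.4 and 20.9 CPM in unmarked libraries at day 270. Marked libraries lay above all unmarked ones of day 60 and on both sides of them at day 270. The change was 0.15 ± 0.22 over both days, with a 95% interval from -0.31 to 0.61 (adjusted p 0.771). At day 270 its change of 0.04 turned negative without marked library 1 (-0.05), marked library 3 (-0.18) or unmarked library 2 (-0.04). Mad2l1, the checkpoint protein Mad2, and Ube2s, the enzyme that extends ubiquitin chains for the complex, were not called (-0.99 ± 0.34 and -0.79 ± 0.50). Ube2s had -2.17 ± 0.70 at day 270 and 0.59 ± 0.70 at day 60, neither called.

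Among 9 spindle proteins, 4 were called lower and the other 5 also had negative values. Tpx2 (chromosome 2, 152847964 to 152895321, plus strand), which activates Aurora A and nucleates microtubules, had 0, 0.714 and 0.358 CPM in marked and 7.90, 9.19 and 6.81 CPM in unmarked libraries at day 60, and 1.63, 3.36 and 2.16 CPM in marked and 5.62, 5.97 and 3.58 CPM in unmarked libraries at day 270. The groups were apart at both days, and the change was -3.39 ± 0.57 at day 60 (adjusted p 0.0128) and -0.96 ± 0.57 at day 270 (adjusted p 0.461). Over both days Tpx2 was called (-2.17 ± 0.40, adjusted p 0.00690). Prc1 (chromosome 7, 80294450 to 80316259, plus strand), which bundles the midzone microtubules, had 0.647, 0.714 and 0.447 CPM in marked and 8.95, 10.6 and 9.22 CPM in unmarked libraries at day 60, and 3.45, 0 and 0 CPM in marked and 10.9, 9.24 and 7.60 CPM in unmarked libraries at day 270. All 3 marked libraries of day 60 were under 1 CPM, and at day 270 the marked reads came from library 1 alone. Prc1 was called at day 270 (-3.27 ± 0.70, adjusted p 0.0447) and over both days (-3.24 ± 0.50, adjusted p 0.00184).

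Nusap1, a microtubule-bundling protein at the chromosomes, had 0.647, 1.43 and 0.626 CPM in marked and 7.37, 7.64 and 9.70 CPM in unmarked libraries at day 60, and 5.64, 0 and 0.108 CPM in marked and 9.57, 5.10 and 11.6 CPM in unmarked libraries at day 270. Marked library 1 of day 270 lay above unmarked library 2, and the change over both days was -2.76 ± 0.55 (adjusted p 0.0126). Dlgap5 (HURP), which stabilises kinetochore fibres, had 0, 0 and 0.0890 CPM in marked and 2.02, 2.40 and 3.72 CPM in unmarked libraries at day 60, and 0, 0 and 0 CPM in marked and 2.39, 1.06 and 2.83 CPM in unmarked libraries at day 270. Marked cells held 1 read at day 60 and none at day 270, and Dlgap5 was called over both days (-2.44 ± 0.42, adjusted p 0.00432). Tacc3, which crosslinks spindle microtubules, had 1.46, 2.26 and 4.20 CPM in marked and 9.57, 10.6 and 6.47 CPM in unmarked libraries at day 60, and 2.70, 2.95 and 0 CPM in marked and 11.7, 4.91 and 7.90 CPM in unmarked libraries at day 270. Its groups did not overlap and its change of -1.93 ± 0.49 just missed the threshold (adjusted p 0.0509). Hmmr, Ckap2 and Ckap2l had -2.05 ± 0.54, -1.49 ± 0.61 and -1.76 ± 0.58, and Spag5, the spindle protein astrin, had -0.21 ± 0.63 with overlapping groups at both days.

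The chromosomal passenger complex corrects attachments of chromosomes to the spindle, and 3 of its 4 genes were called lower. Aurkb (chromosome 11, 69045647 to 69051664, plus strand), its kinase Aurora B, had 0.971, 0.238 and 0 CPM in marked and 6.06, 10.9 and 5.85 CPM in unmarked libraries at day 60, and 2.63, 0 and 0 CPM in marked and 10.2, 6.06 and 6.41 CPM in unmarked libraries at day 270. The groups were apart, with no marked library above 2.63 CPM, and the change over both days was -3.17 ± 0.51 (adjusted p 0.00274). Birc5 (chromosome 11, 117849251 to 117855743, plus strand), survivin, had 0.971, 1.31 and 0.268 CPM in marked and 7.55, 8.59 and 6.67 CPM in unmarked libraries at day 60, and 2.57, 0 and 0.108 CPM in marked and 10, 4.52 and 8.04 CPM in unmarked libraries at day 270. Its groups were also apart, with -2.82 ± 0.49 over both days (adjusted p 0.00432). Cdca8, borealin, had 0, 0 and 0 CPM in marked and 1.58, 8.76 and 0.963 CPM in unmarked libraries at day 60, and 0.251, 0 and 0 CPM in marked and 6.08, 3.56 and 1.49 CPM in unmarked libraries at day 270. At day 60 the 3 marked libraries held no read, at least 38.0-fold lower by the same floor, a bound of 13.2 without unmarked library 2, and over both days the change was -2.66 ± 0.52 (adjusted p 0.0100). Incenp, the scaffold of the complex, had 3.15, 7.14 and 6.17 CPM in marked and 7.63, 12.3 and 13.5 CPM in unmarked libraries at day 60, and 6.77, 0.671 and 4.65 CPM in marked and 8.01, 14.5 and 6.11 CPM in unmarked libraries at day 270. Its groups overlapped at day 270 and its change of -1.21 ± 0.44 was not called (adjusted p 0.187).

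Cdca3 (chromosome 6, 124829547 to 124833701, plus strand), an F-box-like adaptor that helps remove the Cdk1 inhibitor Wee1 at entry into mitosis, had 3.15, 2.26 and 2.50 CPM in marked and 7.11, 11.8 and 9.91 CPM in unmarked libraries at day 60, and 0.376, 0 and 0.757 CPM in marked and 13.2, 8.95 and 10.7 CPM in unmarked libraries at day 270. Marked libraries lay below unmarked ones at both days, and those of day 270 were the lowest, with a change of -3.78 ± 0.54 at day 270 (adjusted p 0.00321) and -1.67 ± 0.54 at day 60 (adjusted p 0.442). Cdca3 was called over both days (-2.73 ± 0.38, adjusted p 0.000709).

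Of 6 mitotic kinases, 3 were called lower. Nek2 (chromosome 1, 191821444 to 191833050, plus strand), which separates the centrosomes, had 0, 0.833 and 0 CPM in marked and 1.84, 14.4 and 3.30 CPM in unmarked libraries at day 60, and 0, 0.268 and 0 CPM in marked and 7.00, 6.74 and 4.17 CPM in unmarked libraries at day 270. Marked cells held 7 reads at day 60 and 2 at day 270, against 237 and 202 in unmarked cells, a ratio of 95 at day 270 with a 95% counting interval of 26.0 to 790.2. Nek2 was called at day 270 (-3.46 ± 0.72, adjusted p 0.0389) and over both days (-3.17 ± 0.51, adjusted p 0.00263). Plk1, the Polo-like kinase of spindle and centrosome, had 0.728, 0.595 and 0.179 CPM in marked and 6.41, 7.04 and 4.54 CPM in unmarked libraries at day 60, and 3.14, 2.69 and 0 CPM in marked and 7.64, 5.58 and 6.48 CPM in unmarked libraries at day 270. Aurka, Aurora A of the spindle poles, had 2.59, 2.38 and 0.268 CPM in marked and 6.58, 9.62 and 6.88 CPM in unmarked libraries at day 60, and 2.45, 0 and 0 CPM in marked and 4.88, 4.62 and 3.28 CPM in unmarked libraries at day 270. For Plk1 and for Aurka marked libraries lay below unmarked ones at both days, and the changes over both days were -2.34 ± 0.49 (adjusted p 0.0174) and -2.24 ± 0.52 (adjusted p 0.0310).

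Bub1b, the checkpoint kinase BubR1, had 10.5, 26.3 and 29.6 CPM in marked and 33.6, 33.1 and 38.8 CPM in unmarked libraries at day 60, and 33.4, 17.4 and 26.3 CPM in marked and 37.6, 40.7 and 31.0 CPM in unmarked libraries at day 270. Marked library 1 of day 270 lay among the unmarked ones, and the change of -0.66 ± 0.24 over both days was not called (adjusted p 0.192). The checkpoint kinases Bub1 and Ttk (Mps1) had -1.96 ± 0.56 (adjusted p 0.0904) and -1.69 ± 0.51 (adjusted p 0.112), at a few reads per library.

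For cytokinesis, 2 of 5 genes were called lower. Shcbp1, a partner of centralspindlin at the midbody, had 0, 1.19 and 0.536 CPM in marked and 1.93, 2.23 and 1.03 CPM in unmarked libraries at day 60, and 0, 0 and 0 CPM in marked and 2.02, 5.68 and 7.67 CPM in unmarked libraries at day 270. No marked library of day 270 had a read, at least 57.7-fold lower, while at day 60 marked library 2 lay above unmarked library 3. Shcbp1 was called at day 270 (-3.33 ± 0.67, adjusted p 0.0314) and over both days (-2.25 ± 0.47, adjusted p 0.0166) and not at day 60 (-1.18 ± 0.67, adjusted p 0.858). Cep55, which recruits the abscission machinery, had 0.162, 0.119 and 0 CPM in marked and 1.93, 3.95 and 1.79 CPM in unmarked libraries at day 60, and 0, 0 and 0 CPM in marked and 3.41, 3.94 and 1.86 CPM in unmarked libraries at day 270. Marked cells held 3 reads at day 60 and none at day 270, and Cep55 was called at day 270 (-2.79 ± 0.60, adjusted p 0.0459) and over both days (-2.55 ± 0.42, adjusted p 0.00364). Racgap1, a subunit of centralspindlin, had 13.9, 8.56 and 8.94 CPM in marked and 29.0, 20.5 and 31.2 CPM in unmarked libraries at day 60, and 18.4, 1.07 and 9.20 CPM in marked and 31.1, 32.7 and 16.8 CPM in unmarked libraries at day 270. Marked library 1 of day 270 lay above unmarked library 3, and Racgap1 was not called (-1.66 ± 0.44, adjusted p 0.0633). Ect2, the RhoA activator, and Anln, anillin, had -1.95 ± 0.53 (adjusted p 0.0679) and -0.47 ± 0.59 (adjusted p 0.729).

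Of 8 kinesins, 3 were called lower. Kif11, the motor that pushes spindle poles apart, had 0, 0.357 and 0 CPM in marked and 9.57, 3.52 and 10.1 CPM in unmarked libraries at day 60, and 2.07, 5.77 and 0 CPM in marked and 10, 11.3 and 0.968 CPM in unmarked libraries at day 270. At day 60 marked cells held 3 reads and unmarked cells 296, while at day 270 unmarked library 3 lay below 2 marked libraries, and the change over both days was -2.58 ± 0.64 (adjusted p 0.0439). Kif22, a chromokinesin, had 0.485, 0.833 and 0 CPM in marked and 5.79, 5.41 and 5.57 CPM in unmarked libraries at day 60, and 0.376, 0 and 0 CPM in marked and 9.67, 1.06 and 4.17 CPM in unmarked libraries at day 270. The groups did not overlap, with -2.80 ± 0.50 over both days (adjusted p 0.00492). Kif4, another chromokinesin, had 0, 0 and 0 CPM in marked and 3.42, 1.03 and 0 CPM in unmarked libraries at day 60, and 0, 0 and 0 CPM in marked and 2.12, 2.69 and 2.09 CPM in unmarked libraries at day 270. It was the only one of the 57 genes with no read in any of the 6 marked libraries, against 130 reads in unmarked ones, at least 38.7-fold lower (-2.0 ± 0.50 over both days, adjusted p 0.0450). The kinesins Kif20a, Kif20b, Kif2c, Kif15 and Kif23 were not called and had values from -1.85 (Kif20a) to -0.46 (Kif23).

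None of the 4 centromere genes was called by limma over both days, and 3 of them, Cenpa, Cenpf and Cenpe, had an unadjusted p under 0.05. Cenpa, the histone H3 variant that marks centromeres, had 4.12, 2.74 and 2.77 CPM in marked and 17.8, 10.9 and 18.9 CPM in unmarked libraries at day 60, and 3.07, 0 and 13.2 CPM in marked and 11.7, 4.62 and 14.0 CPM in unmarked libraries at day 270. At day 270 marked library 3 lay within the unmarked range, and the change over both days was -1.93 ± 0.59 (adjusted p 0.113). The kinetochore genes Cenpf and Cenpe and the centromere gene Cenpm had -1.71 ± 0.47 (adjusted p 0.0772), -1.17 ± 0.56 (adjusted p 0.294) and -0.78 ± 0.56 (adjusted p 0.511).

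The 22 genes given only by their fold change or range had means of 0.0135 to 13.3 CPM over the 6 marked and 0.838 to 26.7 CPM over the 6 unmarked libraries. The mean was lower in marked libraries for 20 of them, and 6 were lower in all 6 pairs. Counting by reads without strand could mix some members with neighbours. Transcripts of Ccna2, Cdc25c, Kif4, Ncapg, Nek2, Prc1 and Tacc3 overlap a gene on the other strand, and those of Birc5, Ccnb1, Cdc20, Cenpe, Ckap2, Mad2l1, Plk1, Prc1, Racgap1 and Ube2c align with pseudogenes in the annotation (GENCODE M21). Those of Ncapd2 share 237 bases with Scarna10 and 235 bases with Gm28967, both on the same strand. Those of Kif2c align with the noncoding gene Gm4961 over 1244 bases (92.3% of letters shared). The sources used here do not say whether the authors' counting used strand, so these values are uncertain to that extent.

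**Figure D3:**
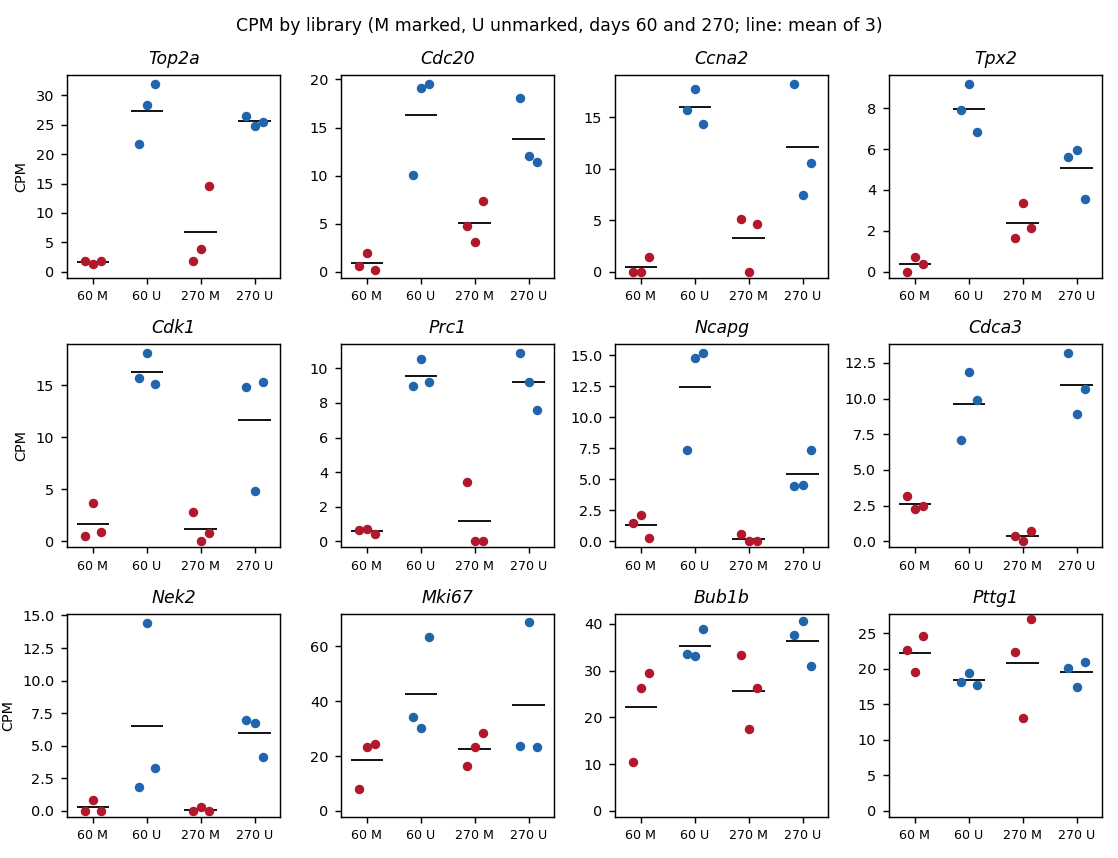
CPM of 12 of the genes by library (points; line, mean of 3) for marked (M) and unmarked (U) cells at days 60 and 270. Marked points lie below unmarked points of the same day for Top2a, Cdc20, Ccna2, Tpx2, Cdk1, Prc1, Ncapg, Cdca3 and Nek2, while the points of Mki67, Bub1b and Pttg1 overlap at day 270.

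At day 60 alone, 4 of the 57 genes were called, Top2a, Cdc20, Ccna2 and Tpx2, all lower in marked cells, where 0.189% of all genes were called and 0.15% were called lower. A negative value was found for 55 of the 57 (63.9% of all genes), and 42 had an unadjusted p under 0.05 in that direction (5.05% of all genes). The median was -2.0, beside -0.13 over all genes, and -2.11 with the 6 genes without a marked read at their bound. The count depended on the tool and the libraries. Beside 4 members and 24 genes in all, edgeR called 2 and 20, DESeq2 13 and 119, limma-voom 0 and 25, and the fit with the specimen as a replicate block 8 and 38. Left out singly, marked library 1 of day 60 gave 2 members of 18 genes, and unmarked libraries 1, 2 and 3 of day 60 gave 2 of 14, 0 of 3 and 0 of 6. Without marked library 2 or 3 of day 270, which enter through the shared spread, it was 9 of 53 or 10 of 41, and without both 18 of 77. In the authors' deposited table for day 60, no member had an FDR under 0.05, the smallest FDR was 0.0560, for Tpx2 and Top2a, and 39 had a p under 0.05. The same counts over all genes of that table were not taken.

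At day 270 alone, 6 genes were called lower, Cdca3, Nek2, Shcbp1, Ncapg, Prc1 and Cep55, where 0.48% of all genes were called and 0.433% were called lower. Negative values were found for 54 of the 57 (69.2% of all genes), and 35 had an unadjusted p under 0.05 in that direction (11.9% of all genes). The median was -1.74, beside -0.22 over all genes, and -1.99 with the 10 genes without a marked read at their bound. Beside 6 members and 61 genes in all, edgeR called 1 and 36, DESeq2 11 and 256, limma-voom 1 and 50, and the fit with the replicate block 3 and 44. In a fit of the 6 libraries of day 270 alone it was 0 for members and for all genes. Without marked library 1 of day 270 it was 16 of 482 genes called, and without unmarked library 1, 2 or 3 of that day 0 of 5, 1 of 15 or 1 of 6. It was 3 of 49 without marked library 3 of day 60, and 2 of 33 or 2 of 35 without unmarked library 2 or 3 of day 60. Without marked libraries 2 and 3 of day 270, those with the fewest genes with a read, it was 2 of 15 at day 270 and 22 of 183 over both days.

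None of the 57 genes was called at both days, and the difference between the days was tested itself. How many of all genes tested were called at both days was not counted. For the interaction, the change at day 270 minus that at day 60, limma called 0 of the 57 genes and 0.0% of all genes. Without adjustment 5 of the 57 had a p under 0.05 (3.05% of all genes). These were Tpx2 (2.43 ± 0.80), Cdc20 (2.34 ± 0.79), Cdca3 (-2.11 ± 0.76), Shcbp1 (-2.15 ± 0.94) and Ube2s (-2.77 ± 0.99), each with an adjusted p of 1.0. The median over the 57 genes was 0.01. DESeq2, edgeR and limma-voom called 0 as well.

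Between days within marked cells, limma called 0 of the 57 genes (0.0315% of all genes), and 7 had an unadjusted p under 0.05 (9.64% of all genes). Cdc20 was the nearest, with 4.77, 3.09 and 7.36 CPM in marked libraries at day 270 and 0.566, 1.90 and 0.179 CPM at day 60 (2.14 ± 0.56, adjusted p 0.256). Its libraries of the 2 days did not overlap, and for how many of all genes that holds was not counted. Tpx2, Ckap2, Ccnb2 and Top2a were also higher at day 270 without passing (1.80 ± 0.57, 1.83 ± 0.87, 1.79 ± 0.79 and 1.36 ± 0.54), and Cdca3 and Ube2s lower (-1.93 ± 0.54 and -2.04 ± 0.70). The marked libraries of day 270 were uneven, with 0.627, 0 and 9.52 CPM for Ckap2, 5.46, 2.95 and 0 for Ccnb2 and 1.88, 3.89 and 14.6 for Top2a. DESeq2 called 4 members of 128 genes in this comparison, 1 of the 4 lower at day 270, and edgeR and limma-voom called 0 members. Between the same marked libraries all 10 monocyte and macrophage markers had positive values, day 270 minus day 60 (median 1.61), with none called and 6 at an unadjusted p under 0.05, as had 8 of 11 neutrophil markers (median 1.39), 8 of 9 erythroid markers (median 1.30) and 4 of 5 T and NK cell markers (median 1.34), with none called and 0, 2 and 1 at such a p. The monocyte and macrophage sum was 250.6 to 642 CPM in marked libraries at day 270 and 141 to 242 CPM at day 60, and the part of these markers in the values of the 57 genes was not tested.

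Within unmarked cells, limma called 0 of the 57 genes between day 270 and day 60 and 0.0% of all genes. None of the 57 had an unadjusted p under 0.05 (2.98% of all genes), and DESeq2, edgeR and limma-voom called 0. The median over the 57 was -0.08, beside 0.12 over all genes. In unmarked cells too, most markers of other cells had positive values, day 270 minus day 60, with none called. These were 9 of 10 monocyte and macrophage markers (median 0.94) and 10 of 11 neutrophil markers (median 0.98). So were 7 of 9 erythroid (median 0.33) and 4 of 5 T and NK cell markers (median 1.21). Only 2 of them, monocyte and macrophage markers, had an unadjusted p under 0.05.

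The authors' deposited table of 265 genes sets marked cells of day 270 against unmarked cells of day 60. Of the 57 genes, the authors' deposited table lists 12, all lower in marked cells of day 270, with log2 fold changes from -6.39 for Ncapg to -2.81 for Top2a, the gene with the smallest FDR (0.00759). The others are Aurka, Birc5, Cdca3, Cdk1, Cenpf, Cep55, Dlgap5, Kif22, Nek2 and Prc1. Each of these 12 genes has an FDR under 0.05 there, which may be a condition of being listed. If the 265 genes were chosen by FDR, that outcome was fixed in advance and shows nothing about the 12. The day 60 table holds 14219 genes, and how many of the 265 genes were lower was not counted. The table of 265 genes shares its unmarked libraries with the day 60 comparison.

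Other genes of the same machinery were measured in the same fit. Of 36 further centromere and kinetochore genes tested, 2 were called lower over both days (median -0.76), Ska3 (-2.48 ± 0.42) and Nuf2 (-2.31 ± 0.53). Of 35 further spindle, motor and cytokinesis genes, 7 were called lower (median -1.13), the largest being Sapcd2 (-2.76 ± 0.45), Cdca5 (-2.73 ± 0.52), Cdca2 (-2.56 ± 0.54), Kif18b (-2.50 ± 0.43), Pbk (-2.34 ± 0.50) and Ccnf (-2.26 ± 0.48). Among 16 subunits of the anaphase-promoting complex (median -0.21) and 10 of cohesin and its loaders (median -0.54), limma called none. Without adjustment 3 of the 16 had a p under 0.05, 2 of them lower, and 5 of the 10.

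Of 19 regulators of G2 and M transcription, 2 were called lower (median -0.47). Foxm1, the factor that joins MuvB in G2, averaged 1.04 ± 1.38 CPM in marked and 4.61 ± 3.15 CPM in unmarked libraries at day 60, and 0.997 ± 1.32 CPM in marked and 5.35 ± 0.610 CPM in unmarked libraries at day 270 (SD, n = 3 each). Its change over both days was -2.15 ± 0.54 (adjusted p 0.0475), close to the threshold. E2f2, an E2F factor, fell by 1.12 on the log2 scale (adjusted p 0.00753). Mybl2 (B-Myb), which binds MuvB earlier in the cycle, was not called (-1.11 ± 0.51, adjusted p 0.281).

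Of 24 S-phase genes, 2 were called lower (median -0.61), and all 24 were negative. Rrm2, a subunit of ribonucleotide reductase, had -1.45 ± 0.20 (adjusted p 0.000708) and the replication helicase factor Cdc45 -2.49 ± 0.40 (adjusted p 0.00263). The sliding clamp Pcna (-0.57 ± 0.18) and the helicase subunit Mcm2 (-0.31 ± 0.17) were not called (adjusted p 0.138 and 0.371). Summed S-phase CPM was 273 to 331 in marked and 445 to 485 in unmarked libraries at day 60, and 306 to 383 in marked and 464 to 530.2 in unmarked libraries at day 270. Of 7 inhibitors of cyclin-dependent kinases limma called none over both days, with 1 at an unadjusted p under 0.05, lower in marked cells. Their values ran from -1.42 to 0.70 (median -0.22), with 4 of the 7 negative. At day 270 the lowest was -1.86, and 2 of the 7 were lower at an unadjusted p under 0.05. Cdkn1a (p21) had 0.10 ± 0.27, Cdkn1b (p27) -0.30 ± 0.15 and Cdkn2c (p18) -0.22 ± 0.20.

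Markers of other cells were measured beside the 57 genes, and their part in the falls was not tested. Of 8 plasma cell markers limma called none over both days (median -0.16), with 2 at an unadjusted p under 0.05 and 6 negative. At day 270, where their sum was lowest in marked libraries 2 and 3, 7 of the 8 were negative (median -0.20), with 1 at an unadjusted p under 0.05, and at day 60 it was 5 of the 8 (median -0.05), with 0. Of 11 B cell markers, Cd79a (-1.23 ± 0.13) and Blk (-0.70 ± 0.17) were called lower over both days, where all 11 were negative. By day, 9 of the 11 were negative at day 60 (median -0.69). At day 270 it was 6 of the 11, with 5 positive (median -0.11, beside -0.22 over all genes). The summed CPM of the 11 markers was 1371 to 1489 in marked and 1840 to 2140 in unmarked libraries at day 60. At day 270 that sum was 1229 to 1532 CPM in marked and 2047 to 2167 CPM in unmarked libraries. Of 4 germinal centre B cell markers tested, Gcsam was called lower (-2.23 ± 0.50). The sum of 5 such markers, tested or not, overlapped at both days. It was 36.8 to 44.0 CPM in marked and 23.1 to 40.4 CPM in unmarked libraries at day 60, and 27.7 to 51.6 CPM in marked and 29.9 to 48.8 CPM in unmarked libraries at day 270. Of 4 pro-B and pre-B markers tested limma called none, at an unadjusted p under 0.05 or after adjustment. The sum of 7 such markers, tested or not, ran from 113 to 264 CPM in marked and from 159.8 to 201 CPM in unmarked libraries.

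Markers of cells outside the B lineage were measured in the same way. Of 9 erythroid markers, the globin genes Hbb-bt (2.61 ± 0.51), Hba-a1 (2.20 ± 0.46), Hba-a2 (2.17 ± 0.47) and Hbb-bs (2.14 ± 0.41) were called higher in marked cells. The other erythroid markers were not called, and over both days 7 of the 9 were positive and 2 negative (lowest -0.38). By day, 4 of the 9 were negative at day 60 and 1 at day 270. The erythroid sum, over 10 markers with the 1 not tested, was 111 to 355 CPM in marked and 47.0 to 72.4 CPM in unmarked libraries at day 60. At day 270 that sum was 188 to 811 CPM in marked and 38.4 to 173 CPM in unmarked libraries. The sum of 12 neutrophil markers ran from 1.78 to 813 CPM in marked and from 23.7 to 292 CPM in unmarked libraries of day 60. At day 270 it ran from 86.7 to 549 CPM in marked and from 41.4 to 218 CPM in unmarked libraries. Of the 11 neutrophil markers tested over both days, limma called 0, and 0 had an unadjusted p under 0.05. Of 10 monocyte and macrophage and 5 T and NK cell markers limma called none, with 1 of the 10 and 0 of the 5 at an unadjusted p under 0.05.

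**Figure D4:**
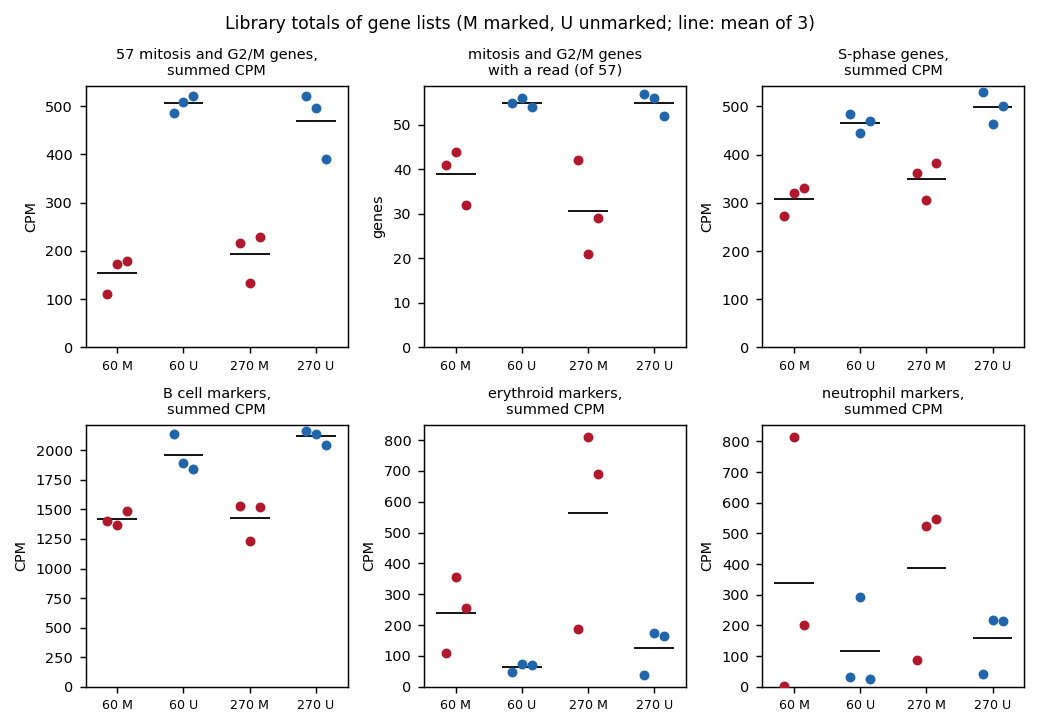
Totals by library (points; line, mean of 3) of marked (M) and unmarked (U) cells at days 60 and 270, as summed CPM of a gene list or as the number of the 57 genes with a read. The 57 genes sum to 111 to 229.9 CPM in marked and 389.9 to 522 CPM in unmarked libraries; the S-phase and B cell sums are also lower in marked libraries of each day, the erythroid sum is higher, and the neutrophil sums overlap.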

How the data were processed

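RNA of 12 libraries of sorted plasma cells was measured by sequencing. RNA was prepared with RNeasy Micro and libraries with TruSeq RNA, per the labels' protocols. The submitters' processing notes name GRCm38 and limma, without a version or role. The sources used here give no aligner, counter or annotation.

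The deposited table of 14219 genes gives CPM per library, per the file headers, which the authors scaled by total reads. The deposited table of 230 genes gives counts. The authors' deposited tables also give log2 fold changes, p-values and FDR. CPM times 1 total per library gave back whole reads for 100% of 151342 values from genes with means under 1000 reads (tolerance 0.05 reads, largest deviation 0.00803), and 100% of the values of the count table were matched. Totals cover the genes of the table. Intervals and floors of 3 reads cover counting error only.

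Values were tested as log2(CPM + 0.5) in limma 3.58.1 (R 4.3.3) with a prior variance that follows the mean, all 12 libraries, 1 coefficient per group and 8 residual degrees of freedom. A filter on low reads (filterByExpr in edgeR 4.0.16, minimum count 10) kept 12704 genes and removed 1515. Tests were two-sided, p-values were Benjamini-Hochberg adjusted over all genes, and the threshold was 0.05. The script was tested on simulated data, with changes set in marked cells of day 60. It called 40 of 40 genes set at a log2 change of -3, 35 of 39 at -2 and 3 of 40 at -1. At 1 it called 7 of 40 and at 2 it called 38 of 40, with 11 false calls over 12228 genes. The simulated spread was set and not taken from these libraries. Alternatives were the quasi-likelihood test of edgeR and DESeq2 1.42.0 on the recovered reads, limma-voom, TMM scaling, other filters and pseudocounts, the compared libraries alone, a replicate block and leaving out libraries. edgeR called 204 genes over both days, 17 of them members.

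Within a day, the labels give a marked and an unmarked library the same specimen number, which was taken as the pairing. Residuals correlated with a median r of 0.0556 within specimens (6 pairs) and -0.0194 between them (12 pairs). Between days the block was the replicate number, which joins different specimens.

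The members and the other gene lists were chosen with earlier results of these data known. 1 gene of the B cell markers is not reported here and is in neither their count nor their sum. Values in every library are given for genes called in a comparison of marked with unmarked cells and for the gene of highest mean CPM in each role, 35 of 57. Of the other lists, called genes are named, up to 6 a list, with Foxm1, Mybl2, Pcna, Mcm2, Cdkn1a, Cdkn1b and Cdkn2c in any case. The plasma cell marker Sdc1 is named outside this rule. Gene positions and overlaps are from GENCODE M21 on GRCm38, and promoters from RefSeq.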

Additional observations from a re-analysis of the deposited data

How the results depend on the processing

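Over both days, 13 of the 27 called genes were called in each of the 23 alternatives (Top2a, Ccna2, Cdc20, Cdk1, Tpx2, Cdca3, Nek2, Ncapg, Kif22, Cep55, Dlgap5, Espl1 and Melk), and all 27 kept a negative sign in each. The count was 17 with edgeR, 18 to 34 with 1 library left out and 26 with the replicate block. The 4 genes called at day 60 and the 6 called at day 270 kept their sign in each of 24 alternatives, but 0 of the 4 and 0 of the 6 were called in each.

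At day 60 the count of 4 became 2 with edgeR, 13 with DESeq2, 0 with limma-voom, 7 with a pseudocount of 1, 8 with the replicate block and 12 with the compared libraries alone. It was 18 without marked libraries 2 and 3 of day 270, 7 without marked library 2 of both days, and 0 to 10 with 1 library left out. At day 270 the count of 6 became 1 with edgeR, 11 with DESeq2, 1 with limma-voom, 10 with a pseudocount of 1, 3 with the replicate block and 0 with the compared libraries alone. It was 2 without marked libraries 2 and 3 of day 270, 3 without marked library 2 of both days, and 0 to 16 with 1 library left out. The causes were not tested, except that leaving out libraries leaves fewer of them. Between days, DESeq2 called 4 members in marked cells where limma called 0, and the replicate block moved no other count of calls by over 1.5 times. For the interaction and for unmarked cells between days the count stayed at 0 in each alternative. Of the 57 genes, 6 changed sign in at least 1 alternative for a day or over both days, none of them called there (Anln, Cenpm, Ckap2, Kif23, Pttg1 and Spag5). Over both days Kif23 became 0.24 with edgeR, 0.25 with DESeq2 and 0.024 without marked libraries 2 and 3 of day 270 (-0.86 to 0.18 with 1 library left out). Spag5 became 0.078 with edgeR and 0.11 with DESeq2 (-0.70 to 0.045 with 1 library left out, above 0 without library 1 of either group of day 270 or of marked cells of day 60, marked library 2 of day 270 or unmarked library 3 of day 60). Cenpm became 0.006 without marked libraries 2 and 3 of day 270. Among the 35 genes given in every library, only Pttg1 at day 270 changed sign, with -0.05 without marked library 1, -0.18 without marked library 3 and -0.04 without unmarked library 2 (highest 0.33, without marked library 2). The causes of these changes were not tested.

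With 3 libraries a group and few reads per gene, a gene that was not called is not shown to be unchanged. Where a fit leaves an arm with 1 library, that library is assumed to vary like the others.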
